A study of Mus musculus with 2 samples.

Results

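The genes of the nuclear lamina (Lmna, Lmnb1, Lmnb2), of the high mobility group (Hmgb1, Hmgb2, Hmga1, Hmga2), of Polycomb repression (Bmi1, Ezh2) and of NAD-dependent deacetylation (Sirt1) were followed in apoptotic osteoblasts of old and of young mice. They were taken by symbol: each of the 10 symbols had 1 Ensembl identifier in the table of 55487, and all 10 passed the filter used here, an average level of 1 FPKM or more. FPKM counts fragments per kilobase of gene, scaled to the size of the library. The length that fits the values is the mean over a gene's annotated transcripts, so comparisons of levels between genes are approximate. Both groups were cells grown out of bone pieces, passaged 3 times as marrow mesenchymal stem cells, kept for 3 days in osteogenic medium and exposed to ultraviolet light for 0.5 h, after which over 90% took up Trypan Blue, which enters cells with leaky membranes. The groups were 1 library from old mice, whose treatment label reads day 5, and 1 library from young mice, whose treatment label reads day 0. Age and labelled day therefore cannot be told apart. The labels give neither strain, age in months, sex nor number of animals.

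Lamins form the meshwork under the inner nuclear membrane to which heterochromatin is tethered, and loss of lamin B1 is a widely used mark of senescent cells. HMGB proteins bend DNA and open nucleosomes, and HMGB1 that leaks from dying cells acts as an alarm signal on immune receptors. HMGA proteins bind AT-rich DNA through AT-hooks, are abundant in embryonic and proliferating cells, and are kept low in most adult tissues. Polycomb complexes silence genes by marking histones H3 and H2A, with the Cdkn2a locus as the best-known target in ageing, and SIRT1 removes acetyl groups from histones and transcription factors.

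The 4 high mobility group genes differed in opposite directions by subfamily. Both HMGA genes were more than 2-fold higher in the old library, at 36.1 against 16.1 FPKM for Hmga1 and 21.2 against 7.09 FPKM for Hmga2. Both HMGB genes were lower in the old library, at 201 against 256 FPKM for Hmgb1 and 120.4 against 179 FPKM for Hmgb2. Among the lamins, Lmna was 1.31-fold and Lmnb1 1.15-fold higher in the old library, while the Polycomb genes Bmi1 and Ezh2 had ratios of 0.803 and 0.801. With 1 library per age no difference has a replicate check and no p-value was made. Ratios are FPKM of old over young, and the brackets after them give 95% intervals for counting error alone. In bulk RNA, fewer cells of a type and less RNA per cell cannot be told apart.

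The sequences shown first are the promoters of the pair that was 2-fold higher (Hmga1 and Hmga2) and of a pair that was lower (Hmgb2 and Ezh2), each as the 250 bases before the RefSeq start site in GRCm38.p6, written 5′ to 3′ along the gene's strand. Capitals mark every match, on either strand, to the CCAAT box (CCAAT), the GC box (GGGCGG) and the CHR element (TTTGAA), which is known from cell cycle genes.
Hmga1 promoter, chr17:27556324-27556573, plus strand: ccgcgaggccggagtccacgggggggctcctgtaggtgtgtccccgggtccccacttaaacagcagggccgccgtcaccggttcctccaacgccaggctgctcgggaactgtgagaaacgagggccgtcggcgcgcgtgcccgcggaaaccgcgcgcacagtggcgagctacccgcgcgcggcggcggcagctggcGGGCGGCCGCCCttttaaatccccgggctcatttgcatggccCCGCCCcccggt
Hmga2 promoter, chr10:120476470-120476719, minus strand: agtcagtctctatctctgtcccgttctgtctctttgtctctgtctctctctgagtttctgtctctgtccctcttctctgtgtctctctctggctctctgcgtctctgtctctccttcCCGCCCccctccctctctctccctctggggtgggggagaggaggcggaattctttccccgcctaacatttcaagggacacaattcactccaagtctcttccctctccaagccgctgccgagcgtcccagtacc
Hmgb2 promoter, chr8:57511593-57511842, plus strand: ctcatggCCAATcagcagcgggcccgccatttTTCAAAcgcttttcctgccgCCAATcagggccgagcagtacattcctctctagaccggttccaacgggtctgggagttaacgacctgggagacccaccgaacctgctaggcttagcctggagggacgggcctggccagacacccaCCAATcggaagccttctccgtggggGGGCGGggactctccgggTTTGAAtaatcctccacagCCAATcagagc
Ezh2 promoter, chr6:47595031-47595280, minus strand: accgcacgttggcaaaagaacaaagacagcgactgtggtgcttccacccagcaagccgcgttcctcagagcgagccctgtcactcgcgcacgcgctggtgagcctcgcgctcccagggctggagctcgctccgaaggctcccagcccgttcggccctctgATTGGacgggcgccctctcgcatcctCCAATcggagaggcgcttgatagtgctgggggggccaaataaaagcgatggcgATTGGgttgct

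RefSeq windows of 300 bases, 250 before and 50 from the start site, were found for Lmna, Lmnb2, Hmgb1, Hmgb2, Hmga1, Hmga2, Bmi1, Ezh2 and Sirt1, some with a second start site. The Hmgb2 window held 4 CCAAT boxes and 2 CHR elements, the Ezh2 window 3 CCAAT boxes, and 1 of the Hmgb1 windows 3 CCAAT boxes. Lmna held 1 such box, and none was found in Lmnb2, Hmga1, Hmga2, Bmi1 or Sirt1. Hmgb1, Hmgb2 and Ezh2, with 3 or more boxes in a window, were below 0, as were Bmi1, Lmnb2 and Sirt1 without any. Both HMGA genes without any were above 0, as was Lmna with its box in the second window. A link of the box to the difference was not tested. The CHR element was present in 17.9% of all promoters. Windows with 3 or more CCAAT boxes made up 3.37% of all 32851 promoters, against 37.4% with at least 1. The HMGA windows held GC boxes only, 4 in that of Hmga1 shown, 1 of them after the start site, and 1 in that of Hmga2, a motif present in 35.7% of all promoters. Of 3 spellings of the E2F site searched (TTTGGCGC, TTTCGCGC and TTTCCCGC), Ezh2 alone among these genes held 1, TTTGGCGC at base 4 counted from the start site, and any of them was present in 1.84% of promoters. The AP-1 site TGACTCA was found in Lmna alone and in 5.20% of all promoters. Of the 9027 genes past the filter with a promoter entry, 565 (6.26%) had 3 or more CCAAT boxes in a window. Their median log2 ratio was −0.11, old over young, against −0.06 for the 5088 with none. A match of letters is a description and no evidence that a factor binds there.

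Hmga2 is also known as a target of the let-7 microRNAs, whose mature form is shown with the seed, bases 2 to 8, in capitals, beside the matches to that seed (CTACCTC) in the annotated 3′ untranslated regions of Hmga2 and Hmga1.
mmu-let-7a-5p: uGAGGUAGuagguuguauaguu
Hmga2 match at base 58 of the 3′ UTR: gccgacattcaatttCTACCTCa
Hmga2 match at base 1295 of the 3′ UTR: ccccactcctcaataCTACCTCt
Hmga2 match at base 1733 of the 3′ UTR: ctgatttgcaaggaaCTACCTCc
Hmga2 match at base 2591 of the 3′ UTR: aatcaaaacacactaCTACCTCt
Hmga1 match at base 801 of the 3′ UTR: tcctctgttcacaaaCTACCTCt

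Hmga2 held 4 matches in a region of 3014 bases, Hmga1 held 1 in 1183 bases and Ezh2 held 1 in 402 bases, while the other members had none in their longest annotated region. At least 4 matches were found in 8 of the 10912 genes measured (0.0733%), and at least 1 in 1138 genes (10.4%). Genes with 3 or more matches, 20 in all, had a median log2 ratio of −0.07, old over young, the same as the −0.07 of genes with at least 1 and close to the −0.06 of those with none. The libraries measured mRNA, and mature let-7 was not analysed here. Lin28a, which blocks let-7 maturation, had no reads in either library, and its paralogue Lin28b had 1 read in the old library and none in the young, and the limit of 3 reads allows Lin28a up to 0.136 FPKM in the old library and 0.151 FPKM in the young.

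Members were read against all 12561 genes past the filter. At a 2-fold difference on the log2 scale of FPKM + 1, the old library was higher for 1.97% of those genes and lower for 0.868%, and of the 10 members 2 were higher and none lower. At a 1.2-fold difference 15.4% were higher and 22.7% lower, and of the members 3 were higher (Hmga2, Hmga1, Lmna) and 4 lower (Hmgb2, Hmgb1, Bmi1, Ezh2). The members' median log2 ratio was −0.14, against −0.07 for all genes, with 4 members above 0 and 6 below. When ratios were centred on the median of all genes, 4 members were 1.2-fold higher, Lmnb1 being added, and 2 were lower, since Bmi1 and Ezh2 came to −0.25 each. The same centring turned the split of all genes at 1.2-fold to 2451 higher and 2082 lower, against 1931 and 2854 as deposited.

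**Figure D1:**
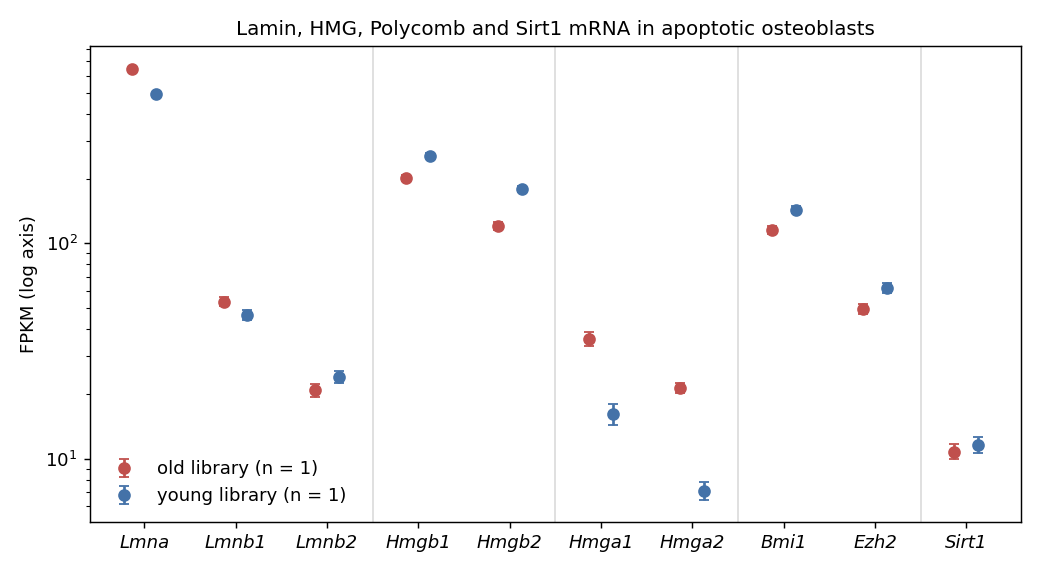
FPKM on a log axis for the 10 genes, grouped by family, with the old library (n = 1) to the left of the young (n = 1) and bars for exact 95% Poisson counting intervals. Lmna is highest in both, and the HMGA genes are the pair with the widest gap, at 36.1 against 16.1 FPKM for Hmga1 and 21.2 against 7.09 FPKM for Hmga2.

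The order of levels was alike at the top and different at the bottom. This order also depends on the gene lengths used and on sequence shared with other genes, which the Poisson intervals leave out. Lmna led in both libraries, followed by Hmgb1, Hmgb2 and Bmi1 in both. In the old library Hmgb2 and Bmi1, Lmnb1 and Ezh2, and Hmga2 and Lmnb2 were neighbours whose Poisson intervals overlapped. In the young library no neighbouring intervals overlapped, Ezh2 stood above Lmnb1, and Hmga2 was the lowest of the 10 at 7.09 FPKM, below Sirt1 at 11.6 FPKM. In the old library Sirt1 was the lowest at 10.8 FPKM, and Hmga2 stood eighth.

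Lmna, which encodes lamins A and C as splice forms that a gene total cannot separate, lies at chr3:88480147-88509956 on the minus strand of GRCm38 (ENSMUSG00000028063). It was at 647 FPKM in the old library and 492 FPKM in the young, on 21560 and 14804 reads, a ratio of 1.31 [1.29 to 1.34]. Its log2 ratio of 0.39 was exceeded by 9.73% of all genes. None of its sequence was shared with other genes, and no exon overlapped another gene.

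Lmnb1 encodes lamin B1, and is on chromosome 18 from 56707813 to 56753424 (ENSMUSG00000024590). It was at 53.6 FPKM in the old library and 46.4 FPKM in the young, a ratio of 1.15 [1.07 to 1.24] on 1701 and 1328 reads. The old library was thus the higher one for this mRNA, although 19.0% of all genes had a larger log2 ratio than its 0.20. Senescence was not tested. Lmnb2, the gene of lamin B2 (chr10:80901203-80918245), was at 20.8 FPKM in the old library and 23.9 FPKM in the young, a ratio of 0.869 [0.790 to 0.956] and a log2 ratio of −0.19 that lay inside the middle range of all genes. The ratio of Lmna to Lmnb1 levels in FPKM was 12.1 in the old library and 10.6 in the young, and that of Lmna to Lmnb2 was 31.1 and 20.6. Lmna made up 89.7% of the summed lamin FPKM in the old library and 87.5% in the young.

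**Figure D2:**
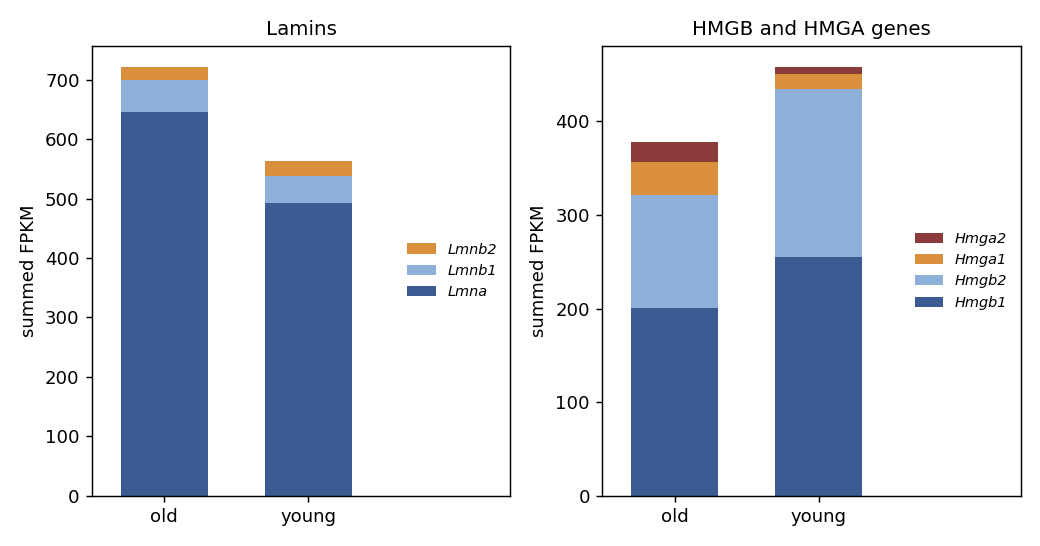
Summed FPKM of the lamin genes (left) and of the HMGB and HMGA genes (right), with the old library left of the young and each colour a gene. The lamin sum is higher in the old library at 721 against 563 FPKM, while the HMG sum is lower at 378 against 458 FPKM with a wider HMGA portion.

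Hmga2 (ENSMUSG00000056758, chr10:120361275-120476469, minus strand) had the largest log2 ratio of the members. It rested on 1398 reads in the old library and 421 in the young, a ratio of 2.99 [2.68 to 3.35] whose interval lay wholly above 2. Its log2 ratio of 1.46 was the 100th highest of 12561 genes and the 44th highest of the 8264 that averaged 10 FPKM or more. It shared 4.18% of its sequence with other genes, and an antisense gene covered 2.07% of its exon bases with 7 reads in the old library and 1 in the young.

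Hmga1 (ENSMUSG00000046711, chr17:27556497-27563674, plus strand) had 734 reads in the old library and 295 in the young, a ratio of 2.24 [1.96 to 2.58] that reached below 2. Its log2 ratio was 1.12, rank 207 of all genes. The value is uncertain because 72.2% of its sequence recurs in other genes, chiefly in Hmga1b, a near-identical copy on chromosome 11, and other genes also cover 5.84% of its exons. Hmga1b itself was at 4.36 FPKM in the old library and 2.81 FPKM in the young, on 69 and 40 reads. With the reads of both rows pooled the ratio was 2.16 [1.90 to 2.46]. At a pseudocount of 5 Hmga1 did not reach 2-fold, with a log2 ratio of 0.96, and Hmga2 was at 1.12.

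Hmgb1 (ENSMUSG00000066551, chr5:149046702-149184489, minus strand) had 3745 reads in the old library and 4304 in the young, a ratio of 0.785 [0.751 to 0.820] and a log2 ratio of −0.35. Its many processed pseudogenes make it uncertain: 51.9% of its sequence recurs elsewhere, and 34 rows held at least 10% of it. Pooled with those rows the ratio was 0.817 [0.787 to 0.847]. Hmgb2 (ENSMUSG00000054717, chr8:57511907-57515999, plus strand), the paralogue that is strongest in dividing cells, had 2691 and 3609 reads in old and young, a ratio of 0.672 [0.639 to 0.707]. Its log2 ratio of −0.57 was the 20th lowest of the 1160 genes that averaged 100 FPKM or more, and 4.83% of all genes were lower. Pooling with the 4 rows that share at least 10% of it gave a ratio of 0.678 [0.646 to 0.712].

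Within the family the balance differed between libraries. HMGA genes together made up 9.55% (Hmga1) and 5.61% (Hmga2) of the summed FPKM of these 4 genes in the old library, against 3.52% and 1.55% in the young. The level of Hmgb2 was 5.67 times that of Hmga2 in the old library and 25.3 times in the young, both in FPKM. The length behind the Hmgb2 level was 1234 bases, below its longest annotated 3′ untranslated region of 1872 bases. For Hmga2 the length was 3636 bases, above its region of 3014 bases. Shared sequence also differed, at 72.2% for Hmga1, 51.9% for Hmgb1 and 28.5% for Hmgb2, against 4.18% for Hmga2. Such ratios and shares between genes are therefore approximate.

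**Figure D3:**
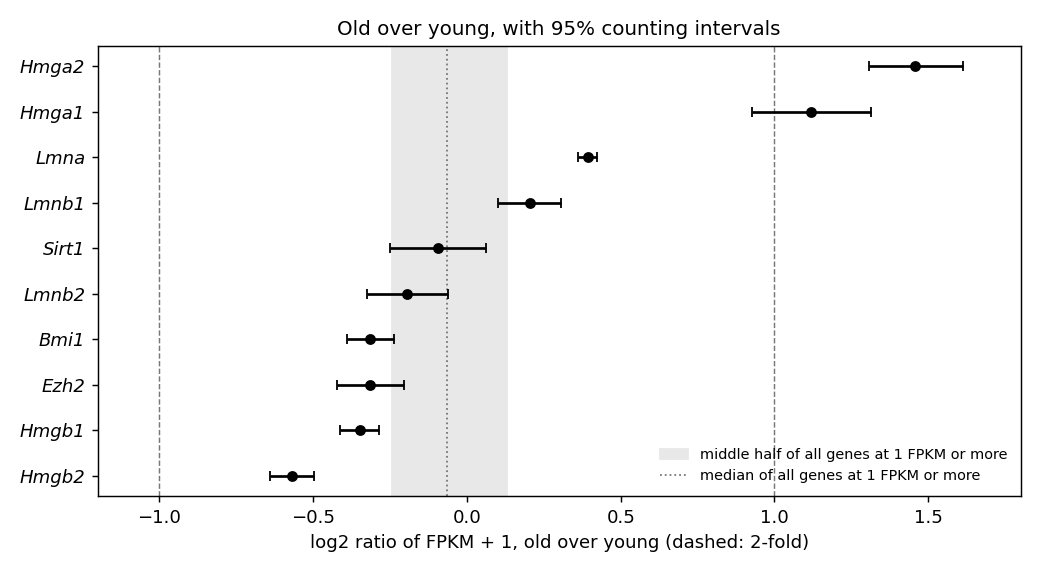
Each gene's old over young log2 ratio of FPKM + 1, sorted, with 95% counting intervals. The grey band holds the middle of all genes past the filter, from −0.24 to 0.13. Hmga2 and Hmga1 lie beyond the dashed 2-fold line at 1.46 and 1.12, and Hmgb2 is lowest at −0.57.

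Bmi1 and Ezh2 encode the core of the Polycomb complexes, Bmi1 a RING partner of complex 1 and Ezh2 the methyltransferase of complex 2. Bmi1 (ENSMUSG00000026739, chr2:18677018-18686629) was at 115 FPKM in the old library and 144 FPKM in the young, on 2633 and 2956 reads, a ratio of 0.803 [0.762 to 0.847]. Of its sequence 20.3% recurs in other rows, which held 2 reads in the old library and 3 in the young. Ezh2 (ENSMUSG00000029687, chr6:47530139-47595341) was at 49.6 FPKM in the old library and 61.8 FPKM in the young, on 1254 and 1411 reads, a ratio of 0.801 [0.742 to 0.865]. Their log2 ratios were both −0.31, with 82.2% of all genes higher, and the level of Bmi1 was 2.33 times that of Ezh2 in the old library and 2.32 times in the young.

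Sirt1 (ENSMUSG00000020063, chr10:63319005-63381704) encodes the deacetylase linked to lifespan in many animals. It was at 10.8 FPKM in the old library and 11.6 FPKM in the young, on 572 and 554 reads. Its ratio of 0.931 [0.827 to 1.05] had the one counting interval among the members that held 1. The intervals of the others say nothing of the spread between animals or cultures.

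Partner genes were described by lists, with no test, and each list's counts at 1.2-fold stand beside the 15.4% of all genes that were higher and the 22.7% that were lower in old. The lamina and nuclear envelope list had all 24 genes past the filter, 4 of them past 1.2-fold on the higher side in old and none on the lower, the higher share being near that of all genes, with a median log2 ratio of 0.07 against −0.07 for all genes. The higher ones were Syne1 (23.4 against 14.5 FPKM), Syne3 (5.58 against 3.29 FPKM), Emd (82.5 against 63.7 FPKM) and Tor1aip1 (64.4 against 53.1 FPKM). Syne1 and Syne3 are nesprins that tie the nucleus to the cytoskeleton, Emd is the gene of emerin, and Tor1aip1 is a lamin-binding activator of torsin. Other genes cover 13.6% of the exons of Emd and 12.9% of those of Tor1aip1. Tmem43, the most abundant of the list, was at 203 FPKM in the old library and 171 FPKM in the young, and Tpr, a nuclear pore basket protein, was at 131 and 127 FPKM. Zmpste24, the protease that matures prelamin A, was at 28.9 FPKM in the old library and 25.6 FPKM in the young, a gene named after its values were seen.

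Of the remaining HMG box and HMGN genes 11 passed the filter, 3 with a log2 ratio above 0 and 8 below. In old, 5 were lower by 1.2-fold or more and none higher, beside 22.7% lower and 15.4% higher among all genes. Their median log2 ratio was −0.16, against −0.07 for all genes, and −0.10 after centring on that median. Hmgn2, a nucleosome-binding protein, was at 147 FPKM in the old library and 220.4 FPKM in the young, with 45.2% of its sequence shared. Hmg20b was at 84.8 and 112 FPKM in old and young, Hmgn3 at 86.8 and 114 FPKM, and Hmgn1, the most abundant, at 311 and 318 FPKM. Hmgb3, also among the lower ones and named after its value was seen, was at −0.34 on the log2 scale, and 37.5% of its sequence is shared.

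Receptors for extracellular HMGB1 were scarce, with 3 of 5 past the filter. Ager, the receptor RAGE, was at 1.27 FPKM in the old library and 4.17 FPKM in the young, on 34 and 101 reads, a ratio of 0.304 [0.199 to 0.452]. Tlr2 was at 14.3 FPKM in the old library and 9.26 FPKM in the young, and Tlr4 at 8.75 and 8.81 FPKM. Cxcr4 had 6 reads in the old library and 1 in the young, and Havcr2 had 11 reads in each. Of the let-7 axis, the RNA-binding genes Igf2bp1 (30.7 and 31.6 FPKM in old and young) and Igf2bp2 (10.2 and 9.49 FPKM) were within 1.2-fold, and Igf2bp3 was at 11.1 FPKM in the old library and 8.92 FPKM in the young, a ratio of 1.24 [1.07 to 1.45]. Another gene covers 18.7% of the exons of Igf2bp3.

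Polycomb complex 1 had all 21 listed genes past the filter, 1 past 1.2-fold on the higher side in old and 6 on the lower, beside 15.4% and 22.7% of all genes. The median log2 ratio was −0.12, against −0.07 for all genes. Cbx8, a chromodomain reader of methylated histone H3, was at 14.9 FPKM in the old library and 20.5 FPKM in the young, and its relative Cbx2 was likewise lower, at 9.78 and 13.6 FPKM. Pcgf5, a homologue of Bmi1, was the higher one at 21.5 FPKM in the old library and 16.3 FPKM in the young. The most abundant were Cbx6 (129 and 135 FPKM) and Rybp (57.9 and 52.5 FPKM). Polycomb complex 2 had 10 of 11 genes past the filter, 2 higher and 1 lower at 1.2-fold and a median of −0.09. Phf19 rested on 89 reads in the old library and 45 in the young (log2 ratio 0.54), Jarid2 had −0.38, Aebp2 0.28 and the core subunit Suz12 −0.23, and the histone binder Rbbp7 was the most abundant at 248 FPKM in the old library and 253 FPKM in the young. The demethylases that remove the mark made by Ezh2 were within 1.2-fold, Kdm6a at 5.92 and 6.43 FPKM and Kdm6b at 16.4 and 17.8 FPKM.

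Cdkn2a, the Polycomb target that encodes p16 and p19ARF, and its neighbour Cdkn2b had no reads in either library, which allows Cdkn2a at most 0.189 FPKM in the old and 0.210 FPKM in the young. Cdkn1c had 3 reads in the old library and 7 in the young. The expressed inhibitors were Cdkn1a, the gene of p21, at 346 FPKM in the old library and 382 FPKM in the young, Cdkn1b at 53.2 and 61.9 FPKM, Cdkn2c at 52.5 and 59.8 FPKM, and Cdkn2d at 20.4 and 28.6 FPKM. Trp53 was at 103 FPKM in the old library and 91.4 FPKM in the young. Of the 5 genes past the filter in this list 1 was 1.2-fold lower and none higher, the lower share being near the 22.7% of all genes. The median log2 ratio was −0.19, against −0.07 for all genes, and −0.12 after centring on that median.

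Of the other sirtuins and the genes of NAD supply, 12 of 13 passed the filter, 1 at least 1.2-fold higher and 3 lower, the lower share being near the 22.7% of all genes, with a median log2 ratio of −0.04 against −0.07 for all genes. Nampt, the rate-limiting enzyme of NAD salvage, was the higher one at 32.3 FPKM in the old library and 22.1 FPKM in the young, a ratio of 1.46 [1.33 to 1.61]. The lower ones were Sirt3 (4.63 and 6.74 FPKM in old and young, with 17.4% of its sequence shared), Sirt7 (15.95 and 21.6 FPKM) and Sirt4 (15.1 and 18.5 FPKM). Parp1, an NAD-consuming enzyme, was the most abundant and close to even at 79.1 FPKM in the old library and 78.3 FPKM in the young, and Sirt2 was at 56.8 and 65.1 FPKM.

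Heterochromatin and DNA methylation genes went both ways, with 4 of 20 at least 1.2-fold higher, 4 lower and a median log2 ratio of 0.04. Both shares were near those of all genes, 15.4% higher and 22.7% lower, whose median was −0.07. The maintenance genes Hells (56.2 and 44.6 FPKM in old and young), Dnmt1 (44.9 and 36.5 FPKM) and Uhrf1 (65.6 and 53.5 FPKM) and the histone H3.3 chaperone Daxx (70.5 and 52.5 FPKM) were higher. The de novo methyltransferases Dnmt3a (16.3 and 22.5 FPKM) and Dnmt3b (1.36 and 1.94 FPKM) were lower, as were Cbx1 and Kmt5c with −0.30 each, and Trim28 and Ehmt2, the most abundant, had 0.06 and 0.10. Dnmt1, Uhrf1, Cbx1 and Kmt5c were named after their values were seen. Among histone chaperones and variants 13 of 14 genes passed the filter, 1 at least 1.2-fold higher and 3 lower, with a median of −0.17. The lower share was near that of all genes. The replacement histone genes H3f3b (468 and 616 FPKM in old and young) and H3f3a (376 and 475 FPKM, with 42.8% of its sequence shared) and the chaperone Asf1b (25.1 and 31.8 FPKM) were lower, and Chaf1a, the higher one, had 0.28, although another gene covers 52.5% of its exons.

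**Figure D4:**
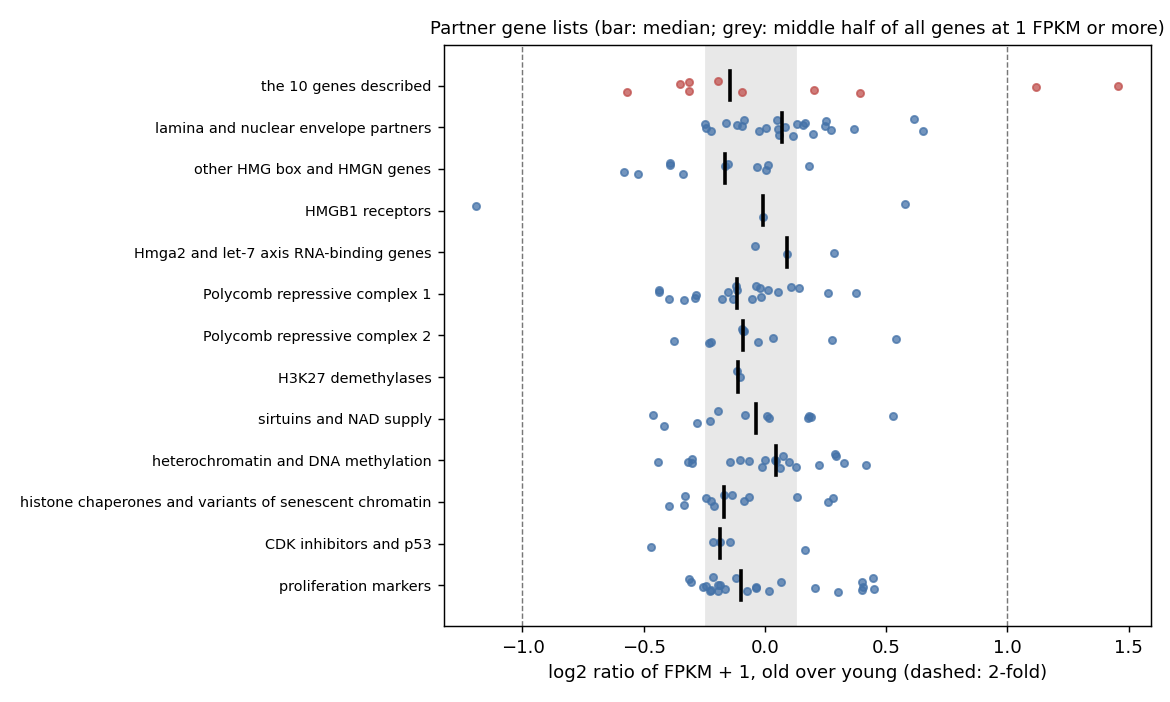
Old over young log2 ratios of FPKM + 1 of the 10 genes described (top row, red) and each partner list (blue), 1 point per gene past the filter, with black bars for medians. The members spread from −0.57 to 1.46, while the list medians lie between −0.19 and 0.09 and Ager is the single list gene beyond a dashed 2-fold line.

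Hmgb2, Ezh2 and Lmnb1 are known to follow cell division, so proliferation markers were set beside them. All 24 passed the filter, with a median log2 ratio of −0.10. At 1.2-fold, 6 were higher in old and 2 lower, beside 15.4% and 22.7% of all genes. The replicative helicase genes Mcm2 to Mcm7, singled out after their values were seen, were all above 0, from 0.21 to 0.45. Of these 6 genes 5 were past 1.2-fold, led by Mcm7 (111 and 80.9 FPKM in old and young, with 36.4% of its sequence shared) and Mcm6 (75.2 and 55.0 FPKM). The other 18 markers had a median of −0.19, with 3 above 0. At 1.2-fold, 1 of the 18 was higher in old and 2 were lower. Those below 0 included Top2a (232 and 277 FPKM), Pcna (201 and 230.1 FPKM) and Mki67 (79.3 and 94.1 FPKM), the last named after its values were seen. The part of proliferation in the differences of Lmnb1, Hmgb2 and Ezh2 was not tested.

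The reads assigned to genes, worked back from the FPKM values, were 18114336 in the old library and 16333396 in the young. Of the 9 osteoblast markers 8 passed the filter, with a median log2 ratio of −0.21 against −0.07 for all genes. At 2-fold, 2 were higher in old, Spp1 (1732 and 224 FPKM) and Dmp1 (4.85 and 0.377 FPKM), beside 1.97% of all genes. Another gene covers 18.75% of the exons of Spp1. At 1.2-fold, 4 markers were lower, beside 22.7% of all genes. Col1a1 (6788 and 8568 FPKM in old and young), Runx2 (72.7 and 92.1 FPKM) and Sp7 (28.9 and 55.5 FPKM) were among these 4 lower ones. Bglap, the osteocalcin gene of mature osteoblasts, had 6 and 3 reads. Of the Bglap sequence 55.2% is shared with other genes, so its reads may be undercounted. Summed levels of other cell types were low in both: the 9 leukocyte markers gave 23.5 FPKM in the old library and 26.0 FPKM in the young, nearly all from Lyz2 and Cd68, with Adgre1 and Cd3e at 0, and the 4 erythroid, 4 endothelial and 4 adipocyte markers gave at most 0.356 FPKM a list in either library.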

How the data were processed

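One RNA-seq library of apoptotic osteoblasts from old mice and 1 from young mice were analysed. The deposited table holds FPKM values, made by the authors. Build mm10 and the tools fastp, STAR, HTSeq and edgeR are named, without role or version, per the submitters' processing notes. For annotation release, strand use and filters, nothing was found in those notes or the labels. Symbols, positions and lengths came from GENCODE M21 (GRCm38, equal to mm10), which held 55227 of 55487 identifiers. Promoters and microRNAs came from RefSeq, GRCm38.p6.

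Reads were worked back from FPKM with the rounded mean transcript length of each gene. Within 0.01, 97.6% of values above 0 came out whole in either library. These reads gave exact Clopper-Pearson intervals of the ratio, Poisson intervals of levels and the limit of 3 reads for a count of 0. PCR copies are not independent molecules, so these cover counting error only. No test was run on them.

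The measure was the difference in log2 of FPKM + 1, old minus young, over 12561 genes averaging 1 FPKM or more, described at 2-fold and at 1.2-fold. With 1 library a group there was no test and no p-value. Shared sequence was the percentage of a gene's 50-base words, taken every 25 bases, that recur in transcripts of other genes. Since strand use is unknown, overlapping genes may share reads. Simulated data with known ratios were used to check the code. The members and the 12 lists were chosen with earlier results of these data known. Named genes are all members and, per list, the 4 with the largest difference past the filter and the 2 most abundant, with all genes of the demethylase, inhibitor and let-7 lists. Others are said to have been named after their values were seen, and a few genes that the rule names are not reported here. Python 3.11.15, numpy 2.4.6, pandas 2.3.3, scipy 1.17.1 and matplotlib 3.10.9 were used.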

Additional observations from a re-analysis of the deposited data

How the results depend on the processing

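Under the 7 alternatives (pseudocounts, filters, centring, rescaling without the 10 most abundant genes, protein-coding genes alone) the log2 ratios of the 10 members kept their sign in all 70 values, and 3 moved beyond their counting interval (Hmga2 at a pseudocount of 5, Lmna and Hmgb1 on centring). Pseudocounts, filters and the restriction to protein-coding genes cannot change a member's sign. Only centring and rescaling could have done so. Hmga2 ranged from 1.12 to 1.57, Hmga1 from 0.96 to 1.18 and Hmgb2 from −0.58 to −0.50. The number of members 1.2-fold lower was 2 after centring, against 4 without it. List medians kept their sign in 79 of 84 values, and those of the HMGB1 receptors, the let-7 axis and the sirtuins crossed 0 under filtering or centring. Over all genes, a pseudocount of 0.1 gave 408 at 2-fold higher and 236 lower, and one of 5 gave 101 and 20, with 1830 at 1.2-fold lower. With a mean of at least 10 FPKM, 106 were 2-fold higher and 27 lower, and 1010 and 1644 passed 1.2-fold. With no filter 3181 were 1.2-fold higher, and among protein-coding genes 41 were 2-fold lower. Pooling reads with near-copies, an alternative chosen after seeing the data, gave log2 ratios of −0.29 for Hmgb1, −0.56 for Hmgb2, 1.07 for Hmga1 and −0.31 for Bmi1. No paired analysis was possible because each group has 1 library, and no library could be left out. The fewest reads behind a member were the 295 of Hmga1 in the young library.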

Other observations

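Hox genes are the classic targets of Polycomb repression, and were added as a list after other values had been seen. Of 39 genes, 11 passed the filter, with a median log2 ratio of −0.13 against −0.07 for all genes. At 1.2-fold, 2 were higher in old and 1 lower, beside 15.4% and 22.7% of all genes. The higher share was thus near that of all genes. All 9 genes of the HoxD cluster had no reads in either library, which allows each at most 0.10 FPKM in the old and 0.11 FPKM in the young. Other genes cover 62.8% of the exons of Hoxd3 and 52.3% of those of Hoxd4, so the limit may not hold for them. The HoxA cluster was the most widely expressed, with 7 of 11 genes past the filter, led by Hoxa10 at 8.33 FPKM in the old library and 9.32 FPKM in the young. Hoxa3 was at 6.74 FPKM in the old library and 4.15 FPKM in the young, on 200 and 111 reads (other genes cover 27.1% of its exons), Hoxc9 at 2.61 and 1.63 FPKM, and Hoxb6 at 2.45 and 3.50 FPKM.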
